A study of Mus musculus with 18 samples.

Results

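Secreted cues that guide axons or sustain neurons were followed in whole embryonic lungs of the mouse. The set was chosen by name and holds 9 of the 23420 genes listed: the neurotrophins Bdnf and Ntf3, the neurotrophic factor Gdnf, the netrins Ntn1 and Ntn4, the class 3 semaphorins Sema3a and Sema3c, and the Slit ligands Slit2 and Slit3. Tubb3, which encodes a neuronal beta-tubulin, was read in the same libraries for comparison. The study asked how Wnt5a and its downstream Vangl proteins set the position and direction of lung branches, and profiled lungs by bulk RNA-Seq in 3 experiments of 3 mutant and 3 control libraries. In the Vangl1/2 experiment, controls were Vangl1-/- and mutants Vangl1-/-; Vangl2-/-, both at E12.5 (days post coitum), so both groups carried a gene trap of Vangl1. In the Dermo1-Cre experiment, controls were Wnt5af/+; Dermo1Cre and mutants Wnt5af/f; Dermo1Cre at E12.5, with Cre knocked into a gene of the mesenchyme. In the Sox9-Cre experiment, controls were Wnt5af/+; Sox9Cre and mutants Wnt5af/f; Sox9Cre at E13.5, with Cre active in the epithelium. All Wnt5a controls thus carried Cre and a floxed allele. The Vangl2 mutants were made with Sox2-Cre, which acts throughout the embryo, and Sox9-Cre came on only after branching had begun, as the study describes. The study describes its repeats as biological in general, but how many embryos went into a library is not given in the sources used here, and p-values measure the spread between these libraries.

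Neurotrophins and GDNF are secreted proteins that keep neurons alive and draw in their axons, through Trk receptors and through Ret with its Gfra co-receptors. Netrins attract axons through Dcc and repel them through Unc5 receptors, semaphorins of class 3 act through neuropilins and plexins, and Slits repel axons through Robo receptors. In the developing lung, neural crest cells and their axons follow the airway smooth muscle, and several of the same cues also act on branching epithelium and on vessels.

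Targeted genes were read first. Vangl2 was at 277, 406 and 334 normalized counts in the Vangl1/2 controls and at 86.5, 79.8 and 89.6 in the mutants (log2 fold change -1.96, SE 0.17, adjusted p = 0.0318, limma). Vangl1, trapped in both of these groups, still had counts, at 162, 219 and 113 in controls and 239, 274 and 242 in mutants (log2 fold change 0.65, SE 0.23, adjusted p = 0.233, limma). Wnt5a had 472, 430 and 489 normalized counts in the Dermo1-Cre controls and 317, 436 and 230 in the mutants, which overlapped (log2 fold change -0.55, SE 0.19, adjusted p = 0.406), and with Sox9-Cre 473, 453 and 426 against 442, 362 and 448 (log2 fold change -0.12, SE 0.10, adjusted p = 0.9999). Libraries held between 15945393 and 19814346 reads on genes. In the Vangl1/2 table, controls 1 and 3 stood apart from the other 4 libraries: they scored -30.1 and -44.7 on a first component carrying 51.7% of the variance, whereas control 2 and the mutants scored between 15.1 and 21.5. The same pair of controls was low for long transcripts, with slopes of log2 level per doubling of transcript length of -0.183 and -0.222 against 0.0678 in control 2 and 0.0960 to 0.144 in the mutants. Slopes lay between -0.0653 and 0.0635 in the other tables. Values without control 1, without control 3 and without both are given for the cues of that table. Without both, control 2 is the lone control and is assumed to vary like the mutants, an alternative added after seeing the data. Markers of lung epithelium and lung mesenchyme passed the filter in all tables.

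No cue passed the test in any experiment. At an adjusted p of 0.05 limma called 0 of the 9 cues in the Vangl1/2 table, where it called 0.00699% of the 14303 genes tested, 0 in the Dermo1-Cre table, where it called 0.014% of 14277, and 0 in the Sox9-Cre table, where it called 0% of 14293. Without adjustment 2, 2 and 1 cues had a p under 0.05, among 2938, 1453 and 557 genes in all. In the Sox9-Cre table edgeR called 0 genes and DESeq2 called 11, none of them a cue. All 9 cues passed the filter on low values in each table. Because the lungs were profiled whole, fewer cells of a type and less RNA per cell cannot be told apart.

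Counting groups instead of tests gave an equally sparse picture. Sema3a was higher in every Vangl1/2 mutant than in every control, the only cue of 9 to be so, where 13.6% of all genes were; Ntf3 was the only cue lower in every mutant, where 8.68% of all genes were. Sema3a was also the only cue higher without overlap in the Dermo1-Cre mutants (7.65% of all genes), and 0 cues were lower without overlap there (7.92% of all genes). With Sox9-Cre 0 cues were higher without overlap (4.42% of all genes), and Ntn1 alone was lower (4.36% of all genes). These shares of the cues are near the background. The median log2 fold change of the 9 cues was 0.26 in the Vangl1/2 table, 0.06 in the Dermo1-Cre table and -0.0090 in the Sox9-Cre table, beside -0.0093, 0.00071 and 0.0013 over all genes tested. The Vangl1/2 median turned on the controls. It was 0.14 without control replicate 1, 0.47 without control replicate 2, 0.038 without control replicate 3 and -0.16 without controls 1 and 3. After each library's trend with transcript length was removed, it was 0.03.

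The upstream sequences of the cues that separated the Vangl1/2 groups, Sema3a upward and Ntf3 downward, are shown so that both can be read side by side. Of the 9 cues, 8 had an entry in the RefSeq table of start sites on GRCm38.p6, with 16 windows of 250 bases before a start among them. Capitals mark matches, on either strand, to CTTTG, the core letters bound by TCF and LEF factors, and to GGGCGG, the GC box bound by Sp1; TATAAA was searched as well, and the 3 motifs do not overlap here. The Sema3a window, chr5:13396534-13396783 on the plus strand, lies within the gene, and the Ntf3 window, chr6:126164961-126165210 on the minus strand, is that of the more downstream of its 2 starts.
Sema3a: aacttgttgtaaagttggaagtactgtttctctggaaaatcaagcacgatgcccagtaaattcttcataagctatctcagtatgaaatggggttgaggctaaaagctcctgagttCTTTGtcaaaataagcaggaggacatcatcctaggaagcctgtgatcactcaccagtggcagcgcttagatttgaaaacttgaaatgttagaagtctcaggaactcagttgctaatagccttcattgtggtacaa
Ntf3: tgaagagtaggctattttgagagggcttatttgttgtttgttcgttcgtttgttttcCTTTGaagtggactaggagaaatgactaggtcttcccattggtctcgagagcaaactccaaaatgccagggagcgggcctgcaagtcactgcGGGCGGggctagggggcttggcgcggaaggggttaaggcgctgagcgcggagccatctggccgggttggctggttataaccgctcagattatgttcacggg
Both windows hold CTTTG once, as 48.6% of all windows of the same length do at least once. The Ntf3 window also holds GGGCGG, found in 32.7% of all windows, and neither holds TATAAA, found in 12.4%. The Sema3a window is poor in G and C (40.8%) and the Ntf3 window is not (54%), beside a median of 52.4% over all windows. A richer composition was found at Slit3 (chr11:35121206-35121455, 78.8%) with 5 matches to GGGCGG, and at Sema3c (chr5:17574566-17574815, 78.4%) with 3. A match is a description of the letters only.

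Levels of the cues within the lung spanned a wide range and kept nearly the same order in the 3 control groups. Per kilobase (kb) of transcript, Sema3a was the most abundant cue, with 574 ± 76.4 (SD, n = 3) normalized counts per kb in the Vangl1/2 controls, 479 ± 39.3 in the Dermo1-Cre controls and 492 ± 26.0 in the Sox9-Cre controls. Slit3 came next, with a level per kb of 261 ± 148, 269 ± 8.77 and 295 ± 20.0 in the same order. Sema3c followed, and its level in the Vangl1/2 controls (147 ± 36.9 per kb) overlapped that of Slit3, whereas those in the Wnt5a controls (179 ± 8.32 and 184 ± 12.7 per kb) did not. Slit2 was at 77.3 ± 36.2, 129 ± 4.54 and 124 ± 10.1 per kb, and Ntn1 at 84.8 ± 24.9, 91.6 ± 17.8 and 99.98 ± 5.09 per kb. Slit2 and Ntn1 could not be ordered in the Vangl1/2 controls, where their ranges overlapped, and Slit2 was above Ntn1 without overlap in the other 2 control groups. Ntf3 and Ntn4 came lower, with Ntf3 at 46.8 ± 11.04, 23.8 ± 4.30 and 27.0 ± 3.78 per kb and Ntn4 at 22.2 ± 0.576, 26.7 ± 1.21 and 23.5 ± 5.67 per kb. Ntf3 exceeded Ntn4 without overlap in the Vangl1/2 controls only, and there Ntn4 and Bdnf overlapped. In Vangl1/2 controls 1, 2 and 3, Slit2 was at 59.7, 119 and 53.2 per kb and Ntf3 at 44.6, 37.1 and 58.8 per kb. Controls 1 and 3 were the pair low for long transcripts, and the part of that trend in the order was not tested. Bdnf was at 20.3 ± 6.93, 14.6 ± 1.04 and 14.5 ± 1.88 per kb, and Gdnf was lowest in every control group, at 4.90 ± 2.46, 3.34 ± 2.25 and 2.80 ± 0.147 per kb. Gdnf rested on 7 to 30 reads in a library, and Sema3a on 2348 to 4843.

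**Figure D1:**
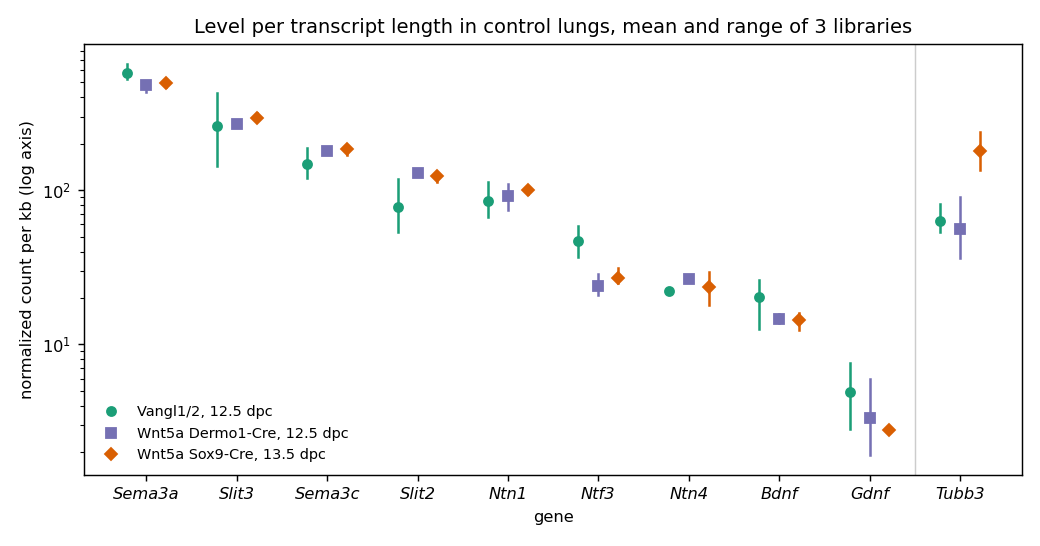
Level of each cue and of Tubb3 in control lungs, as normalized counts per kb of transcript on a log axis, with the mean (marker) and the range (line) of 3 libraries for the Vangl1/2, Wnt5a Dermo1-Cre and Wnt5a Sox9-Cre experiments. Sema3a is highest at 479 to 574 per kb and Gdnf lowest at 2.80 to 4.90, and the ranges of the Vangl1/2 controls are the widest for Slit2 and Slit3.

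Among the neurotrophic factors, Ntf3 (chr6:126101412-126166772, GRCm38), which encodes neurotrophin-3, the ligand of TrkC, separated the Vangl1/2 groups. Its normalized counts were 66.1, 55.0 and 87.2 in controls and 44.3, 42.4 and 43.3 in mutants. Every mutant was below every control, and the mutants lay within a narrow band. The log2 fold change was -0.64 (SE 0.22, 95% interval -1.14 to -0.15, unadjusted p = 0.0174, adjusted p = 0.233, limma). It stayed negative under every alternative, from -0.80 without control replicate 2 to -0.34 without controls 1 and 3. Without control replicate 2 limma's adjusted p was 0.0153, a setting under which 6183 of 14303 genes were called. The Ntf3 value was -0.67 without control replicate 1 (adjusted p = 0.596), -0.47 without control replicate 3 (adjusted p = 0.568) and -0.38 with the length trend removed (adjusted p = 0.590). The 5 smooth muscle markers summed to 8146, 10639 and 12039 in these controls and to 6226, 6516 and 9239 in the mutants. Of the 5, 2 were lower without overlap, beside 8.68% of all genes. The part of these markers in the Ntf3 level was not tested. In the Dermo1-Cre table Ntf3 was at 31.1, 32.1 and 42.6 in controls and 31.3, 42.7 and 20.0 in mutants. Mutant 3 had the lowest value listed in any of the 18 libraries, mutant 1 lay within the control range and mutant 2 just above the highest control (log2 fold change -0.22, 95% interval -0.88 to 0.44). The Sox9-Cre libraries ran the other way, at 46.6, 36.8 and 36.9 in controls and 50.7, 52.3 and 41.0 in mutants, with overlap (log2 fold change 0.25, 95% interval -0.19 to 0.70). The Sox9-Cre interval does not reach the Vangl1/2 estimate, but the difference between the experiments was not tested.

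Bdnf (chr2:109674700-109727043), the ligand of TrkB, did not separate any pair of groups. Vangl1/2 controls held 95.02, 111 and 53.6 normalized counts and mutants 103, 108 and 87.6. Control 3 alone was low (log2 fold change 0.26, 95% interval -0.36 to 0.88), and without it the value was -0.049. It was 0.36 without control replicate 1 and -0.16 without both. The Dermo1-Cre controls had 67.1, 61.2 and 58.5 and the mutants 64.5, 84.4 and 70.9, so that 2 of 3 mutants were above all controls (log2 fold change 0.22, SE 0.16, adjusted p = 0.662). With Sox9-Cre, Bdnf was at 68.4, 52.8 and 63.8 in controls and 61.5, 45.3 and 62.5 in mutants (log2 fold change -0.13, SE 0.19, adjusted p = 0.9999).

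Gdnf (chr15:7810048-7837580), which acts through Ret on enteric and other neural crest derivatives, was the scarcest cue. The Vangl1/2 controls held 10.3, 28.0 and 15.8 normalized counts and the mutants 15.1, 15.8 and 17.7. The mutants lay inside the control range (log2 fold change -0.04, 95% interval -0.92 to 0.84), an interval that spans nearly a doubling either way, and without controls 1 and 3 the value was -0.75 (adjusted p = 0.973). Gdnf was at 8.02, 7.03 and 21.8 in Dermo1-Cre controls and 17.1, 12.9 and 13.0 in mutants (log2 fold change 0.37, 95% interval -0.62 to 1.35). Sox9-Cre controls held 10.9, 9.96 and 9.98 and mutants 14.6, 10.1 and 12.3 (log2 fold change 0.23, 95% interval -0.51 to 0.97). A difference smaller than these intervals was not detectable at such counts.

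Netrin 1 had lower means in the mutants of both Wnt5a experiments, and passed the test in neither. Ntn1 (chr11:68209364-68386826), a laminin-related protein that attracts or repels axons and also shapes lung buds, was at 534, 436 and 645 normalized counts in Dermo1-Cre controls and 395, 440 and 405 in mutants. Mutant 2 exceeded control 2 by a few counts and the groups otherwise did not overlap. The mean was 538 ± 105 in controls and 413 ± 23.2 in mutants (SD, n = 3 each; log2 fold change -0.36, SE 0.12, unadjusted p = 0.0159, adjusted p = 0.406). In the Sox9-Cre table Ntn1 was at 553, 608 and 601 in controls and 447, 497 and 506 in mutants. Every mutant was below every control (log2 fold change -0.28, SE 0.076, 95% interval -0.45 to -0.11, unadjusted p = 0.00536, adjusted p = 0.9999). The direction held under every alternative in both tables, between -0.51 and -0.22 with Dermo1-Cre and between -0.32 and -0.23 with Sox9-Cre. No such difference was seen in the Vangl1/2 table, where Ntn1 was at 434, 665 and 395 in controls and 555, 469 and 646 in mutants (log2 fold change 0.19, 95% interval -0.29 to 0.67), and the sign there turned to -0.088 once the length trend was removed. The value was 0.11 without control replicate 1, 0.038 without control replicate 3 and -0.27 without both. Summed counts of 5 smooth muscle markers moved alongside Ntn1 in the Dermo1-Cre table, at 12584, 10737 and 15027 in controls and 7129, 11582 and 7368 in mutants. Of the 5, 0 separated the groups, where 7.65% of all genes were higher and 7.92% lower without overlap. In the Sox9-Cre table the smooth muscle sums were 10422, 12964 and 11034 in controls and 10583, 12087 and 11491 in mutants. Again 0 of 5 separated the groups, beside 4.42% and 4.36% of all genes. Mesothelial markers summed to 3257 to 3834 in the Sox9-Cre controls and 2647 to 3199 in the mutants (2 of 5 lower without overlap). Cardiomyocyte markers summed to 4288 to 15673 and 740 to 4636 (2 of 6 lower without overlap), where 4.36% of all genes were lower in this way. The part of these markers in the Ntn1 levels was not tested.

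Ntn4 (chr10:93641049-93745972), a netrin of basement membranes, differed little. Its Vangl1/2 controls were tight at 81.6, 82.9 and 78.8 normalized counts, and the mutants were at 62.4, 59.1 and 88.6. Mutants 1 and 2 lay below all controls and mutant 3 above them (log2 fold change -0.23, 95% interval -0.69 to 0.22, and -0.26 without controls 1 and 3). Dermo1-Cre controls had 100.2, 99.4 and 92.1 and mutants 95.8, 75.4 and 92.9 (log2 fold change -0.15, 95% interval -0.47 to 0.17). With Sox9-Cre the controls were at 107, 83.6 and 65.8 and the mutants at 78.1, 83.5 and 99.4 (log2 fold change 0.04, 95% interval -0.40 to 0.49).

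Sema3a was higher in every mutant of both experiments at E12.5, and passed the test in neither. Sema3a (chr5:13124822-13603485), which repels axons through neuropilin 1 and plexins, was at 3190, 3925 and 3098 normalized counts in Vangl1/2 controls and 4874, 4525 and 4615 in mutants. Every mutant was above every control, and control 2 was the nearest (log2 fold change 0.46, SE 0.11, 95% interval 0.21 to 0.72, unadjusted p = 0.00314, adjusted p = 0.233). Without control replicate 2 the value was 0.57 (adjusted p = 0.00015), a setting under which 6183 genes were called in all, and with the length trend removed it was 0.19 (adjusted p = 0.579). It was 0.42 without control replicate 1 (adjusted p = 0.596), 0.40 without control replicate 3 (adjusted p = 0.568) and 0.25 without both (adjusted p = 0.973). In the Dermo1-Cre table Sema3a was at 2584, 3041 and 2893 in controls and 3277, 3140 and 3331 in mutants. The groups did not overlap, though the difference was small, a mean of 2840 ± 233 against 3250 ± 98.6 (log2 fold change 0.20, SE 0.059, 95% interval 0.064 to 0.33, adjusted p = 0.351). At E13.5 the Sox9-Cre controls held 2749, 2941 and 3055 and the mutants 2291, 3049 and 3470. The mutants spread to both sides of the controls (log2 fold change -0.0090, 95% interval -0.31 to 0.29).

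Sema3c (chr5:17574816-17730268), a semaphorin of outflow tract and vascular development, had 659, 1037 and 721 normalized counts in Vangl1/2 controls and 936, 843 and 1097 in mutants. Control 2 lay among the mutants and controls 1 and 3 below them (log2 fold change 0.27, 95% interval -0.15 to 0.69). Without control replicate 2 the value was 0.47 (adjusted p = 0.00729), a setting under which 6183 genes were called in all. With the length trend removed it was 0.03. It was 0.14 without control replicate 1, 0.20 without control replicate 3 and -0.12 without both. The Wnt5a tables were flatter. Sema3c was at 975, 943 and 1033 in Dermo1-Cre controls and 1085, 1113 and 855 in mutants (log2 fold change 0.04, 95% interval -0.17 to 0.25). With Sox9-Cre it was at 1026, 932 and 1068 in controls and 1058, 1121 and 1222 in mutants (log2 fold change 0.17, SE 0.075, unadjusted p = 0.0548, adjusted p = 0.9999), and a single control exceeded the lowest mutant.

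The Slits followed the split within the Vangl1/2 controls. Slit2 (chr5:47981291-48307735), a repellent that acts through Robo receptors, was at 595, 1184 and 530 normalized counts in controls and 1124, 980 and 1192 in mutants. Slit3 (chr11:35121456-35708507), which acts through the same receptors and is known for a role in the diaphragm, was at 1104, 2239 and 755 in controls and 1912, 2467 and 1995 in mutants. For both genes controls 1 and 3 were below all mutants and control 2 was among them. Log2 fold changes were 0.60 for Slit2 (SE 0.27, 95% interval -0.03 to 1.24, adjusted p = 0.251) and 0.78 for Slit3 (SE 0.34, 95% interval -0.0096 to 1.57, adjusted p = 0.246). Without control replicate 2 they were 0.96 (adjusted p = 0.000108) and 1.21 (adjusted p = 0.000239), a setting under which 6183 of 14303 genes were called. Slit2 was at 0.47 without control replicate 1 (adjusted p = 0.604), 0.38 without control replicate 3 (adjusted p = 0.591) and -0.11 without both (adjusted p = 0.973). Slit3 was at 0.70 without control replicate 1 (adjusted p = 0.596), 0.42 without control replicate 3 (adjusted p = 0.583) and -0.085 without both (adjusted p = 0.979). With the length trend removed Slit2 dropped to 0.08 and Slit3 to 0.56 (adjusted p = 0.593). Markers of lung mesenchyme had the same order over these controls, with summed counts of 31497, 51781 and 23718 in controls and 38365, 50125 and 43868 in mutants. Of its 6 markers, 2 were higher in the mutants without overlap (13.6% of all genes) and 1 lower (8.68%). The part of these markers in the Slit levels was not tested.

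In the Wnt5a lungs the Slits were nearly flat, with narrow intervals. Slit2 was at 1313, 1230 and 1304 in Dermo1-Cre controls and 1456, 1284 and 1373 in mutants (log2 fold change 0.10, 95% interval -0.03 to 0.22). Slit3 was at 1366, 1456 and 1398 in Dermo1-Cre controls and 1508, 1376 and 1524 in mutants (log2 fold change 0.06, 95% interval -0.06 to 0.18). All 6 libraries lay between 1230 and 1456 for Slit2 and between 1366 and 1524 for Slit3. With Sox9-Cre Slit2 was at 1311, 1121 and 1275 against 1097, 1115 and 1330 (log2 fold change -0.07, 95% interval -0.28 to 0.14). Slit3 was at 1500, 1464 and 1660 against 1321, 1518 and 1697 (log2 fold change -0.03, 95% interval -0.25 to 0.18).

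**Figure D2:**
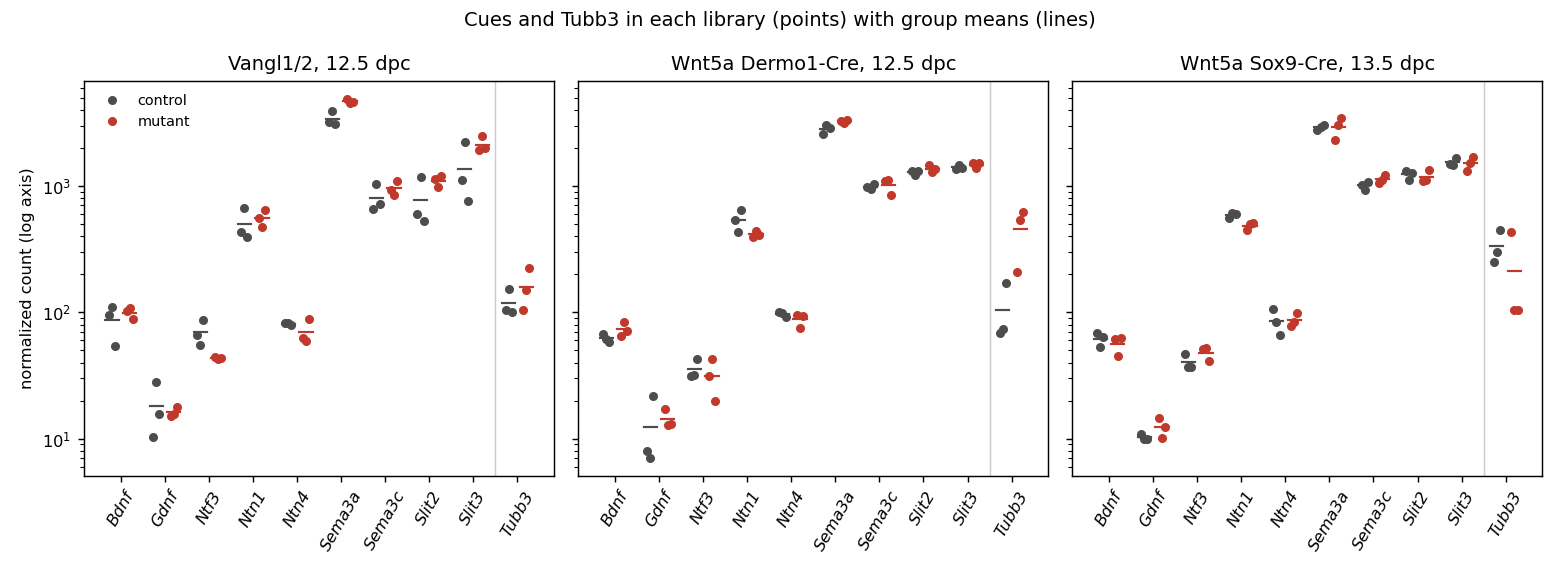
Normalized counts of the 9 cues and of Tubb3 on a log axis, in controls (grey) and mutants (red) of the 3 experiments, with a point per library and a line at the group mean. Sema3a of the Vangl1/2 mutants (4525 to 4874) lies above the controls (3098 to 3925), Ntf3 lies below them (42.4 to 44.3 against 55.0 to 87.2), and Tubb3 runs from 68.1 to 623 in the Dermo1-Cre panel.

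**Figure D3:**
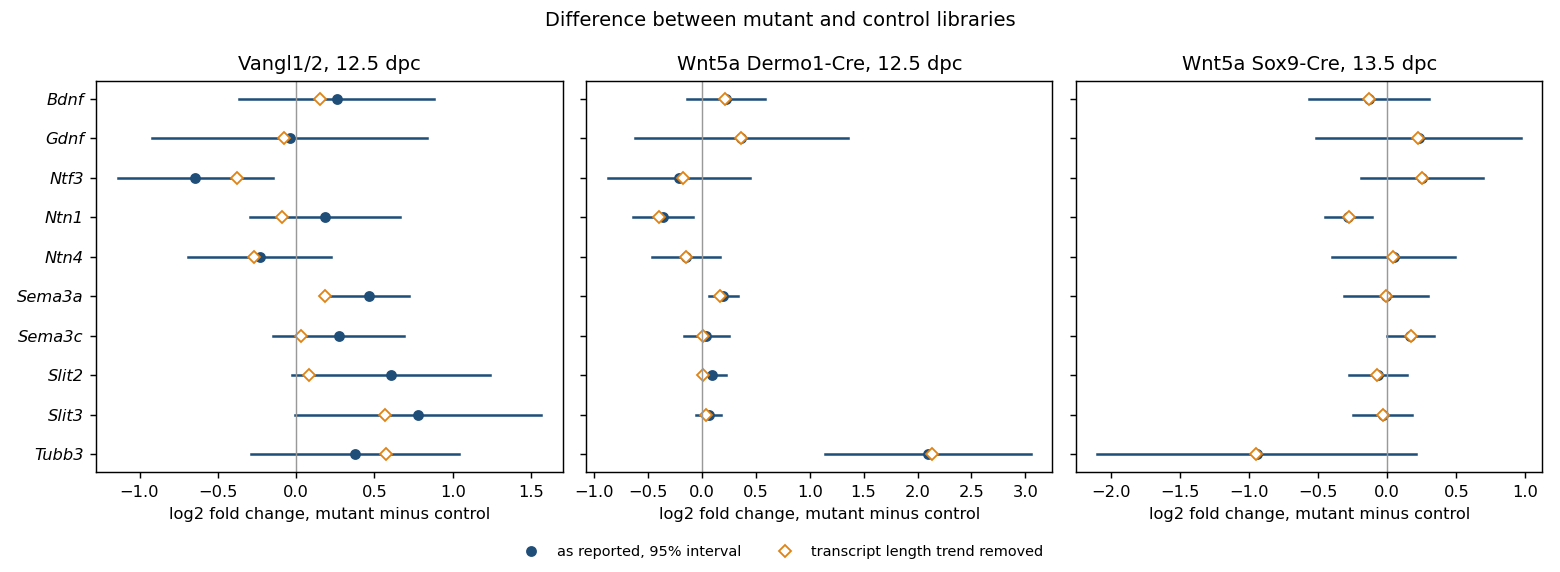
Log2 fold change of each cue and of Tubb3, mutant minus control, with limma's 95% interval (filled points and lines) and after removal of the trend with transcript length (open diamonds). In the Vangl1/2 panel the diamond of Slit2 is at 0.08 against 0.60 and that of Sema3a at 0.19 against 0.46, whereas points and diamonds nearly coincide in the Wnt5a panels.

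Receptors of the cues were read as a list of 25 genes, of which 24 passed the filter in each table and 0 passed limma's test. Of these, 9 had in the Vangl1/2 lungs an unadjusted p under 0.05, as 2938 of all 14303 genes did, 7 were higher in every mutant (13.6% of all genes) and 0 lower (8.68%), and the median log2 fold change was 0.32. With the length trend removed the median was -0.0058 and 4 had an unadjusted p under 0.05. Without control replicate 2 limma called 15, among 6183 genes in all, and without controls 1 and 3 it called 0 with a median of -0.13. Among those without overlap, the smallest p-values were those of Robo2, a Slit receptor, Unc5b, a netrin receptor, and Plxna4, a semaphorin receptor. Robo2 had a mean of 1002 ± 148 normalized counts in controls and 1349 ± 59.5 in mutants (log2 fold change 0.44, adjusted p = 0.233). Unc5b had 1270 ± 224 and 1716 ± 161 (log2 fold change 0.44, adjusted p = 0.233). Plxna4 was at 144, 337 and 91.4 in controls and 343, 585 and 350 in mutants, so that control 2 lay just under the lowest mutant (log2 fold change 1.32, SE 0.44, adjusted p = 0.233).

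Median log2 fold changes of the receptors were smaller in size in the Wnt5a tables. With Dermo1-Cre the median was 0.06, and Ret, the signalling receptor for GDNF, was the 1 gene with an unadjusted p under 0.05 and the 1 gene higher in every mutant, beside 7.65% of all genes. Ret was at 127, 109 and 129 normalized counts in controls and 164, 228 and 230 in mutants (log2 fold change 0.75, SE 0.15, unadjusted p = 0.000557, adjusted p = 0.189). DESeq2 called Ret (adjusted p = 0.0139), as did limma without mutant replicate 1 (adjusted p = 0.0269), and no other receptor was called in either setting. These settings called 102 and 54 genes in all, where limma with every library called 2. Mutants 2 and 3, the highest for Ret, were also the highest for Tubb3. With Sox9-Cre the median was -0.018, 5 had an unadjusted p under 0.05, as 557 of all 14293 genes did, 1 was higher in every mutant (4.42% of all genes) and 3 lower (4.36%). Among the lower receptors were Ntrk2, which encodes TrkB, the receptor of BDNF, and Plxna4. Ntrk2 was at 437, 243 and 238 in controls and 211, 137 and 108 in mutants (log2 fold change -1.004, SE 0.29, adjusted p = 0.9999). Mutant 1 was the nearest to the controls. Plxna4 had a mean of 422 ± 89.4 in controls and 269 ± 29.5 in mutants (log2 fold change -0.63, adjusted p = 0.9999).

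Other cues of the same families made a list of 18 genes. Of these, 17, 15 and 16 passed the filter for Vangl1/2, Dermo1-Cre and Sox9-Cre respectively, and 0 passed limma's test. Without control replicate 2, limma called 7 of the 17 in the Vangl1/2 table, beside 43.2% of all 14303 genes. Median log2 fold changes of these cues were 0.16, -0.028 and -0.027. Among Vangl1/2 mutants, 3 were lower in every library than in every control, beside 8.68% of all genes, and 0 higher, beside 13.6%. Nrtn and Ntf5 were among the 3. Nrtn, which encodes neurturin of the GDNF family, was at 74.4, 47.5 and 61.0 normalized counts in controls and 33.2, 29.6 and 36.4 in mutants (log2 fold change -0.84, SE 0.23, unadjusted p = 0.00616, adjusted p = 0.233). Ntf5, encoding neurotrophin-4/5, had 55.7 ± 2.70 against 43.4 ± 6.92 (log2 fold change -0.37, adjusted p = 0.303). Ntf5 is named because its groups did not overlap and was chosen after its values were seen. With Dermo1-Cre, 1 gene was higher in every mutant (7.65% of all genes) and 1 lower (7.92%). The higher was Ntng1, encoding netrin-G1, a membrane-anchored relative of the netrins. Ntng1 was at 239, 209 and 228 in controls and 283, 317 and 346 in mutants (log2 fold change 0.48, SE 0.099, adjusted p = 0.189). With Sox9-Cre 1 was higher in every mutant (4.42% of all genes) and 1 lower (4.36%), and 0 had an unadjusted p under 0.05.

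Tubb3 varied more between libraries than any cue in both Wnt5a tables. Its highest library held 9.14 times the count of its lowest with Dermo1-Cre, where the widest cue was Gdnf (3.10 times), and 4.31 times with Sox9-Cre, where it was Ntn4 (1.63 times). In the Vangl1/2 table Tubb3 spanned 2.24 times, less than Slit3 (3.27 times), Gdnf (2.71 times) and Slit2 (2.25 times). In the Dermo1-Cre table Tubb3 was at 68.1, 74.3 and 169 normalized counts in controls and 207, 534 and 623 in mutants. Every mutant was above every control, with mutant 1 close to control 3 (log2 fold change 2.10, SE 0.43, unadjusted p = 0.000713, adjusted p = 0.189). The value passed the threshold without mutant replicate 1 (2.59, adjusted p = 0.0257), a setting under which 54 genes were called in all, against 2 with it. Of 13 neuronal markers, 10 were higher in every Dermo1-Cre mutant, beside 7.65% of all genes. The 13 summed to 2415, 2396 and 2787 in controls and 3544, 5649 and 6108 in mutants. Tubb3 of the Vangl1/2 lungs was at 104, 152 and 99.8 in controls and 105, 149 and 224 in mutants (log2 fold change 0.38, 95% interval -0.29 to 1.04). Neuronal markers summed to 2217 to 3147 in those controls and 3549 to 4183 in the mutants. Taken singly, 1 of 13 was higher without overlap, beside 13.6% of all genes. The Sox9-Cre controls held 252, 300 and 447 and the mutants 431, 104 and 105 (log2 fold change -0.94, 95% interval -2.10 to 0.21). Mutant 1 was among the controls there and mutants 2 and 3 were below all of them. Without mutant replicate 1 the value was -1.62 (adjusted p = 0.0401), a setting under which 13 genes were called in all, against 0 with it. Neuronal markers summed to 4131, 3961 and 4752 in the Sox9-Cre controls and 4695, 2506 and 2736 in the mutants. Of the 13 markers, 0 separated these groups, beside 4.42% of all genes higher and 4.36% lower.

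In the Dermo1-Cre lungs Tubb3 separated the groups, and Sema3a was the only cue of 9 that also did. Relative to Tubb3 per kb, all 9 cues were lower in every Dermo1-Cre mutant than in every control, and 0 of 9 were separated in the other 2 tables. These 9 ratios share the Tubb3 denominator. Relative to Tubb3, 88.7% of the other 14276 genes tested were lower likewise with Dermo1-Cre, so the count of 9 is near its background. The share of lower genes was 2.38% with Vangl1/2 and 0.175% with Sox9-Cre, so a count of 0 lower cues is near background too. The share of genes higher relative to Tubb3 was not computed. With Dermo1-Cre, Ntn1, for instance, was 1.21 to 2.49 times the Tubb3 level per kb in controls and 0.207 to 0.608 times in mutants. Sema3a was 5.38 to 12.9 times that level against 1.68 to 4.99 times. Over all 18 libraries, centred within their groups on the log2 scale, Pearson's r of a cue with Tubb3 lay between -0.36 for Sema3a and 0.43 for Gdnf. None of the 9 relations passed an exact permutation test within groups (lowest adjusted p = 0.713). For Gdnf r was 0.43 (p = 0.0792 by exact permutation) and Spearman's rho 0.30 (p = 0.284 by exact permutation). Its r was 0.05 without Dermo1-Cre control 3 and Sox9-Cre mutant 1. These 2 libraries were farthest from the median of Tubb3 after centring within groups, not by their counts. Gdnf gave r of 0.58, 0.41 and 0.71 within the 3 tables, taken as Vangl1/2, Dermo1-Cre and Sox9-Cre. For Sema3a r was -0.36 and Spearman's rho -0.20 (p = 0.484 and 0.558 by exact permutation), with 0.33, 0.15 and -0.79 within the tables, and 0.25 without the same 2 libraries. Ntn1 had r of 0.31 and rho of 0.21 (p = 0.163 and 0.406 by exact permutation), with 0.67, 0.62 and -0.61 within the tables. The sign of r differed between tables for 7 of the 9 cues.

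**Figure D4:**
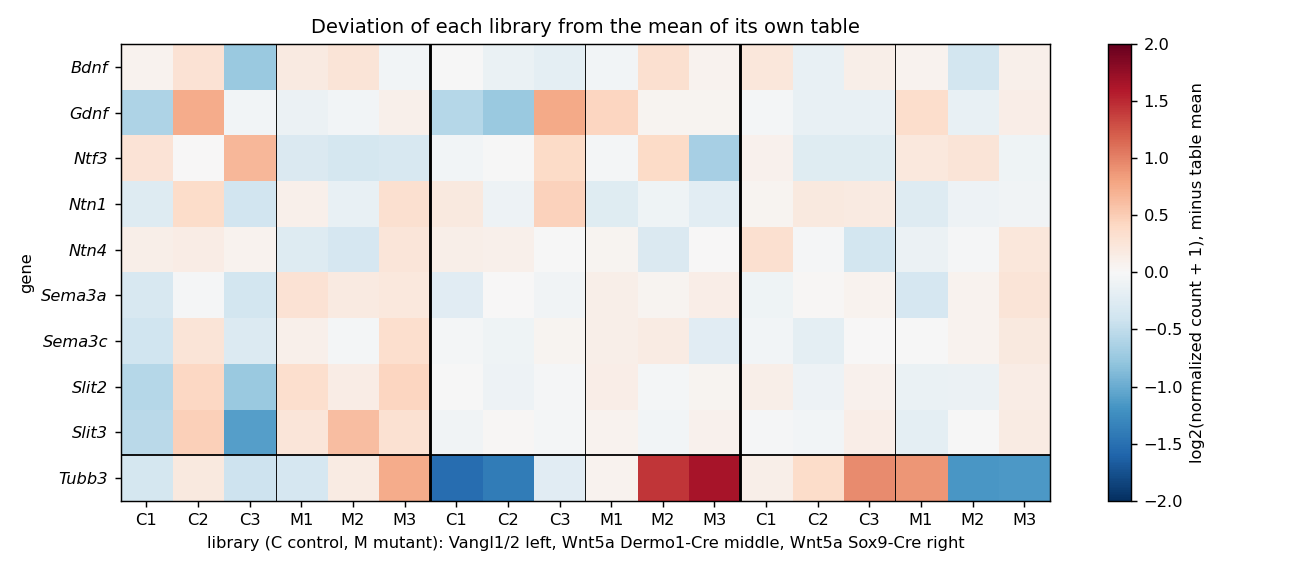
Deviation of log2(normalized count + 1) from the mean of the same table, for the 9 cues and Tubb3 (rows) in 18 libraries (columns; C control, M mutant). The Slits and Sema3c are low in Vangl1/2 controls 1 and 3, and Tubb3 runs from 68.1 to 623 normalized counts in the Dermo1-Cre table, beside 7.03 to 21.8 for Gdnf and 20.0 to 42.7 for Ntf3.

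Genes with the most similar pattern were found for each cue as those with the smallest root-mean-square difference of log2 level, centred within tables, over 18 libraries and 13980 genes. Slit3 was nearest to Fbn1, which encodes fibrillin 1 (0.064), and Lrp1 (0.076). Sema3a was nearest to Epha7, an ephrin receptor (0.062), and Ppp1r12a (0.067). Slit2 was nearest to Insr (0.075) and Ptprd (0.079), and Sema3c to Serac1 (0.086) and Atp11b (0.088). The scarcer cues had no comparably close partner, with the nearest genes at 0.128 for Bdnf (Fam198a), 0.178 for Ntf3 (Crabp2) and 0.247 for Gdnf (Trim9). Ntn1 was nearest to Nipal3 (0.115) and Ntn4 to Pls1 (0.135). All of these values share library and depth within a table. Levels were centred within tables and not within groups, so differences between the Vangl1/2 controls enter these values. Slit3, for instance, was at 1104, 2239 and 755 normalized counts in Vangl1/2 controls 1, 2 and 3. Of these, controls 1 and 3 were low for long transcripts, and the part of that trend in the nearest genes was not tested.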

How the data were processed

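RNA from embryonic lungs was sequenced by the authors, and the submitters' processing notes name Trim Galore, HISAT2, featureCounts, DESeq2 and the build mm10, with no versions used here. The authors deposited a table of 23420 genes for each of the 3 experiments, whose values per library are a signal: gene counts divided by a size factor. Each table also holds the authors' mean and their own log2 fold change and p-value columns, deposited beside the values, and these were not used. Whole reads were recovered from 100% of values (largest deviation 3.74e-05 reads), and size factors lay between 0.952 and 1.07. A normalized count is therefore close to 1 read, and a low count carries the larger counting error. No column belonged to another series (0).

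Differences were tested within each table, since tables were normalized separately, by limma (version 3.58.1, R 4.3.3) with a mean-variance trend on log2(normalized count + 1). Fold changes are on that scale and understate the change of scarce genes. A gene was tested where 3 or more libraries of a table held 10 or more normalized counts, and p-values were adjusted by Benjamini-Hochberg over all of them at 0.05, two-sided. For a single gene an exact permutation test of 3 against 3 libraries cannot go below p = 0.1. The methods give no covariate, and none was used. Alternatives were edgeR (version 4.0.16) and DESeq2 (version 1.42.0) on recovered reads, pseudocounts of 0.5 and 4, other filters and scalings, removal of each library's lowess trend with transcript length (span 0.3), the replicate number as a block, and each library left out, with controls 1 and 3 of the Vangl1/2 table left out together added later. Scripts were tested on simulated data. Lengths were those of the longest protein-coding transcript in GENCODE (mouse, GRCm38), paired with 92.9% of genes. Gene positions are of the same build.

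Correlations with Tubb3 were tested over all 46656 permutations of libraries within groups, two-sided. The members and the lists (receptors, other cues, markers) were chosen with earlier results of these data known. Named from the lists were genes that passed the test, otherwise up to 3 per list and table with the smallest unadjusted p under 0.05 and groups without overlap. All 9 cues, Tubb3 and the targeted genes were always named, with the 2 nearest genes by pattern where shown. Results of some genes are not reported here.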

Additional observations from a re-analysis of the deposited data

How the results depend on the processing

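Leaving out 1 library in turn, limma called 0 to 6 cues in the Vangl1/2 table, and the 6 appeared without control replicate 2, where 6183 of all genes were called against 1 with it. Counts over all genes also moved by over 1.5 times under DESeq2 (20, 102 and 11 genes for Vangl1/2, Dermo1-Cre and Sox9-Cre, against 1, 2 and 0), without Dermo1-Cre mutant replicate 1 (54) and without Sox9-Cre mutant replicate 1 (13). The remaining libraries left out gave 0 to 4 genes for Vangl1/2, 0 to 6 for Dermo1-Cre and 0 to 4 for Sox9-Cre, total-read scaling gave 0 for Vangl1/2, and the length trend removed with the replicate block gave 6 for Dermo1-Cre and 1 for Sox9-Cre. Causes were not tested. No cue was called by edgeR or DESeq2 in any table.

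The cues' median log2 fold change in the Dermo1-Cre table was 0.013 with the length trend removed, with or without the replicate block, and 0.041 to 0.108 with a library left out. Signs turned for 8 log2 fold changes with a library left out: in the Vangl1/2 table Gdnf (-0.36 to 0.316) and Bdnf (-0.049 to 0.468), in the Dermo1-Cre table Sema3c (-0.030 to 0.161) and Ntf3 (-0.465 to 0.064), and in the Sox9-Cre table Ntn4 (-0.127 to 0.219), Sema3a (-0.14 to 0.159), Slit3 (-0.12 to 0.061) and Bdnf (-0.239 to 0.016). Without controls 1 and 3 together, an alternative added after seeing the data, limma called 0 cues in the Vangl1/2 table, their median was -0.16, and signs turned for Bdnf (-0.16), Ntn1 (-0.27), Sema3c (-0.12), Slit2 (-0.11), Slit3 (-0.085) and Tubb3 (-0.0028). Signs also turned for Ntn1 in the Vangl1/2 table (-0.088 with the length trend removed, and -0.088 with the replicate block added), for Sema3a in the Sox9-Cre table (0.013 by edgeR and 0.011 by DESeq2), for r of Ntf3 with Tubb3 (0.054 under total-read scaling) and for r of Sema3a with Tubb3 (0.247 without 2 libraries).

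Whether libraries with the same replicate number shared a litter or a preparation is not given in the sources used here. Their deviations correlated at -0.223 to 0.303 over the 3 tables, and under 0.1 in 7 of 9 pairs. With the replicate number as a block, limma called 0, 16 and 0 genes in place of 1, 2 and 0, and 0 cues in each table. Tubb3 in the Dermo1-Cre table had an adjusted p of 0.0252 with the block, an alternative added after seeing the data, as were all those for Tubb3. Cues with few reads, Gdnf above all, limit what could be detected.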

Other observations

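Markers of other cell types in these lungs were read from the same libraries as the cues. Without overlap, 13.6% of all genes were higher and 8.68% lower in the Vangl1/2 mutants. The same shares were 7.65% and 7.92% with Dermo1-Cre and 4.42% and 4.36% with Sox9-Cre. Of 7 glial markers, 2 were higher in every Dermo1-Cre mutant, with sums of 804 to 861 normalized counts in controls and 830 to 1048 in mutants, and 1 was lower in every Vangl1/2 mutant. Lung epithelial markers summed to 12979 to 13705 in Dermo1-Cre controls and 12199 to 12474 in mutants, with 2 of 6 lower without overlap, and lung mesenchymal markers to 39863 to 48144 and 35442 to 40700, with 2 of 6 lower. Endothelial markers lay between 8867 and 11910 in all libraries. In the Sox9-Cre table they summed to 11360 to 11552 in controls and 10978 to 11294 in mutants, with 2 of 5 lower without overlap, and 1 of 5 was lower in the Dermo1-Cre mutants. Macrophage markers summed to 1115 to 1308 in Sox9-Cre controls and 956 to 1071 in mutants, with 1 of the 3 found in the table lower without overlap. Of the erythroid markers, none separated the groups of a table, and Hba-a1 was listed at 0 in every library. Markers of esophagus and thyroid summed to 20.1 to 262 normalized counts, with 0 separating the groups of a table. Cardiomyocyte markers ranged from 366 to 17330 over the libraries, and in the Dermo1-Cre controls from 1103 to 17330.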
